A study of Mus musculus with 9 samples.

Results

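The F-box protein genes other than Fbxo38 were taken as every gene symbol in the count files that begins with Fbxo, Fbxl or Fbxw and a number, with Fbxo38 left out. This gave 79 of 54427 distinct symbols: 36 Fbxo, 19 Fbxl and 24 Fbxw genes, each on a single entry. Of these, 52 passed the filter on low counts and were tested among 14193 genes, and 27 did not pass. The data were RNA-seq gene counts of 9 tumour samples. B16-F10 melanoma cells, a line of C57BL/6 origin, had been injected subcutaneously in mice of that strain, and tumours were removed on day 16. Each of 3 groups had 3 libraries: cells carrying a control short hairpin RNA (shcontrol), a hairpin against Fbxo38 (shFBXO38#1) or another hairpin against it (shFBXO38#2). The hairpins act in the injected melanoma cells and not in the host cells of the tumour, and the labels name neither the clones used nor the number, age or sex of the animals. No label states that replicates were separate animals, so a p-value here weighs differences against the spread of these libraries, which may be partly technical.

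Most F-box proteins are interchangeable substrate receptors of SCF ubiquitin ligases. Their F-box binds the adaptor Skp1, which sits on the cullin Cul1, while the rest of the protein picks the target to be ubiquitinated. Fbxl proteins recognise targets through leucine-rich repeats, Fbxw proteins through WD40 repeats, and Fbxo proteins through other domains. Some members work with other partners in place of Cul1. Fbxo38 is itself a member of the Fbxo class, and it has been described as a receptor for the T cell checkpoint protein PD-1.

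Counts per library ran from 15322163 to 17342554, of which the 79 F-box genes held between 0.188% and 0.223%. Levels are given as CPM, TMM-scaled counts relative to the library total, and a fold change is the edgeR log2 fold change with its standard error (SE). The targeted gene, Fbxo38, was lower with hairpin 2 (log2 fold change -0.92) but stood at -0.10 in the libraries labelled hairpin 1, which are called by their label for that reason. The melanocyte markers were abundant in all 9 libraries, 8 of 8 being tested with a summed level of 21899 to 28473 CPM. A pair of libraries stood apart from the rest. Replicate 1 labelled hairpin 1 held the highest of the 9 values for 19.1% and the lowest for 20.4% of all tested genes, and its 8 fibroblast markers summed to 3377 CPM against 177 to 1445 elsewhere. Replicate 2 of hairpin 2 held the highest for 17.7% and the lowest for 19.1%, and its 7 erythroid markers summed to 21541 CPM against 422 to 4976 elsewhere. The fibroblast sum lay at 177 to 429 CPM in control, 252 to 3377 in the libraries labelled hairpin 1 and 286 to 1445 with hairpin 2, and its part in the F-box values was not tested. In bulk tumours, fewer cells of a type and less RNA per cell cannot be told apart.

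The first result is which F-box genes had counts in these tumours at all. Most of the expressed genes were spread over the genome, whereas 15 Fbxw genes lie side by side on chromosome 9 (GRCm38, 109139447 to 109790670, a stretch of 651 kb in GENCODE M21). Several of these mouse genes are known for expression in oocytes, and 1 of them, Fbxw23, is annotated as a pseudogene. None of the 15 passed the filter, and 11 of them had no count in any library, which allows at most 0.178 to 0.202 CPM per library (3 counts, counting error only). To show how the promoters of these genes compare in sequence, an abundant gene and a pair of cluster genes at 0 in all libraries are printed, each as the 250 bases before the RefSeq start on GRCm38.p6 with every CG pair in capitals. The Fbxo42 window is chr4:141147672-141147921 on the plus strand, that of Fbxw14 chr9:109287677-109287926 and that of Fbxw28 chr9:109339660-109339909, both on the minus strand. Each sequence reads 5′ to 3′ towards the start.
Fbxo42: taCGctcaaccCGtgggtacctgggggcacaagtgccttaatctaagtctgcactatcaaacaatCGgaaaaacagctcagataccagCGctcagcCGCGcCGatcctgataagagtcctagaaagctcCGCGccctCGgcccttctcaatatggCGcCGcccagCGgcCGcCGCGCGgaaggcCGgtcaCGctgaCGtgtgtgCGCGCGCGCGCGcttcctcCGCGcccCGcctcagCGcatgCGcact
Fbxw14: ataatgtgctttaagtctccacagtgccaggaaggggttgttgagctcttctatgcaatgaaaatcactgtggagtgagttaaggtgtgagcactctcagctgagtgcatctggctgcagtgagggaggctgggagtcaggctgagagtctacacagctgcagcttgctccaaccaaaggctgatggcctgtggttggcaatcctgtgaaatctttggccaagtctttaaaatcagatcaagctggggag
Fbxw28: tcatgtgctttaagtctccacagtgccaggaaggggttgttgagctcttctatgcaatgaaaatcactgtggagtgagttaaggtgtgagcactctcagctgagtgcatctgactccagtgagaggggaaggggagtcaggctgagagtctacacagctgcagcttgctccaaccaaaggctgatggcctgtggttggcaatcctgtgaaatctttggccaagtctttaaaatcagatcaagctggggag

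Fbxo42 had 31 CG pairs in this window, while Fbxw14 and Fbxw28 had 0. The windows of Fbxw14 and Fbxw28 were identical at 242 of 251 aligned columns (96.4%). Transcribed sequences of the cluster were not compared. How reads that match several genes were counted is not given, so the CPM bound above does not cover such reads. The RefSeq table matched 59 of the 79 genes, 16 of them with several starts, of which the most upstream was taken. The 39 tested genes among them had a median of 16 CG pairs (2 to 47), the 20 untested ones a median of 2 (0 to 23) and the 12 cluster genes a median of 1 (0 to 4). Over all 27025 genes of the table the median was 6. At least 10 CG pairs stood in 87.2% of the tested F-box promoters and in 25% of the untested ones. They stood in 0 of the 12 cluster promoters and in 38.2% of all promoters of the table, expressed or not. The share over tested genes of any family was not counted. The 20 untested genes include the 12 cluster genes. The other untested ones had 23 (Fbxl21), 17 (Fbxl13), 15 (Fbxo17 and Fbxo39), 10 (Fbxo27), 4 (Fbxl22), 2 (Fbxo40) and 1 (Fbxw10) CG pairs. The plot of CG pairs against level marks tested, other untested and cluster genes separately. CG pairs read the same on both strands, and their number is a description of the letters in this window only.

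**Figure D1:**
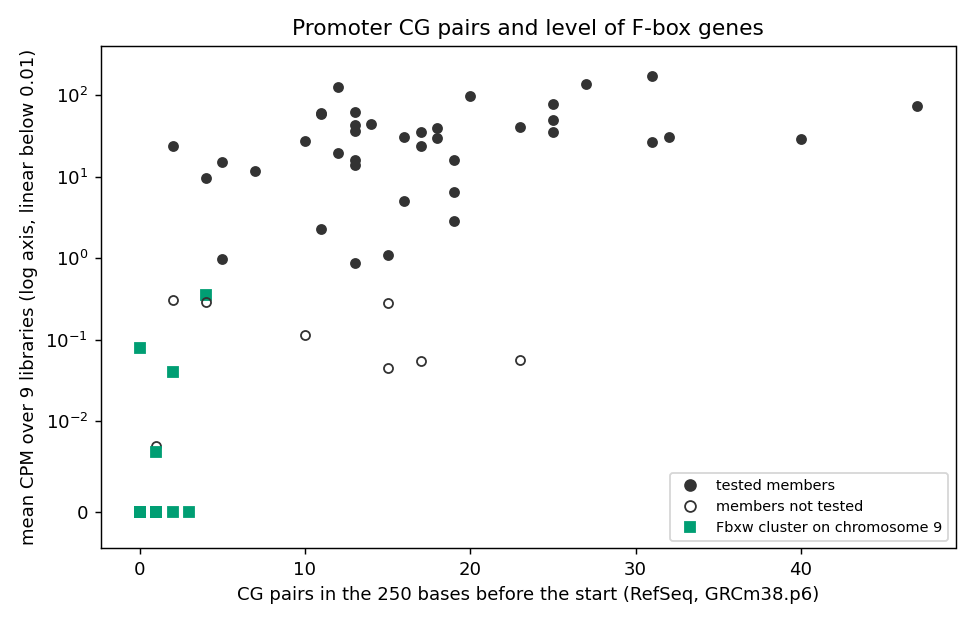
Number of CG pairs in the 250 bases before the RefSeq start (x axis) against mean CPM over 9 libraries (y axis, log scale, linear below 0.01) for the 59 F-box genes with a promoter entry; each point is 1 gene. The 12 genes of the chromosome 9 cluster sit at 0 to 4 CG pairs and under 0.35 CPM.

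Per kilobase of the longest transcript, the highest levels belonged to Fbxl19 (34.3 CPM per kb), Fbxw11 (33.7), Fbxw8 (33.6), Fbxo42 (28.9) and Fbxl6 (28.8). By CPM alone, 4 genes averaged above 100 and 8 tested genes below 5. Fbxo42, whose protein binds p53, stood at 209, 156 and 162 CPM in the control libraries, at 135, 172 and 181 in those labelled hairpin 1, and at 164, 192 and 174 with hairpin 2. Its groups overlapped, with log2 fold changes of 0.01 (SE 0.15, 95% interval -0.32 to 0.33) for hairpin 2 and -0.12 (SE 0.15) for the libraries labelled hairpin 1. Fbxw8, the partner of the cullin Cul7, stood at 178, 162 and 167 CPM in control, 146, 189 and 175 labelled hairpin 1, and 146, 173 and 177 with hairpin 2. Fbxl19, which binds unmethylated CG-rich DNA, stood at 142, 106 and 122 CPM in control, 99.8, 147 and 138 labelled hairpin 1, and 118, 124 and 127 with hairpin 2. Replicate 1 labelled hairpin 1 was the lowest of the 9 libraries for all 3 of these genes. It was also the lowest for Fbxo21, at 70.6 CPM against 78.2 to 112 in the others. Fbxo18, which encodes a DNA helicase with an F-box, was among the steadier abundant genes, at 79.9 to 107 CPM over the 9 libraries.

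**Figure D2:**
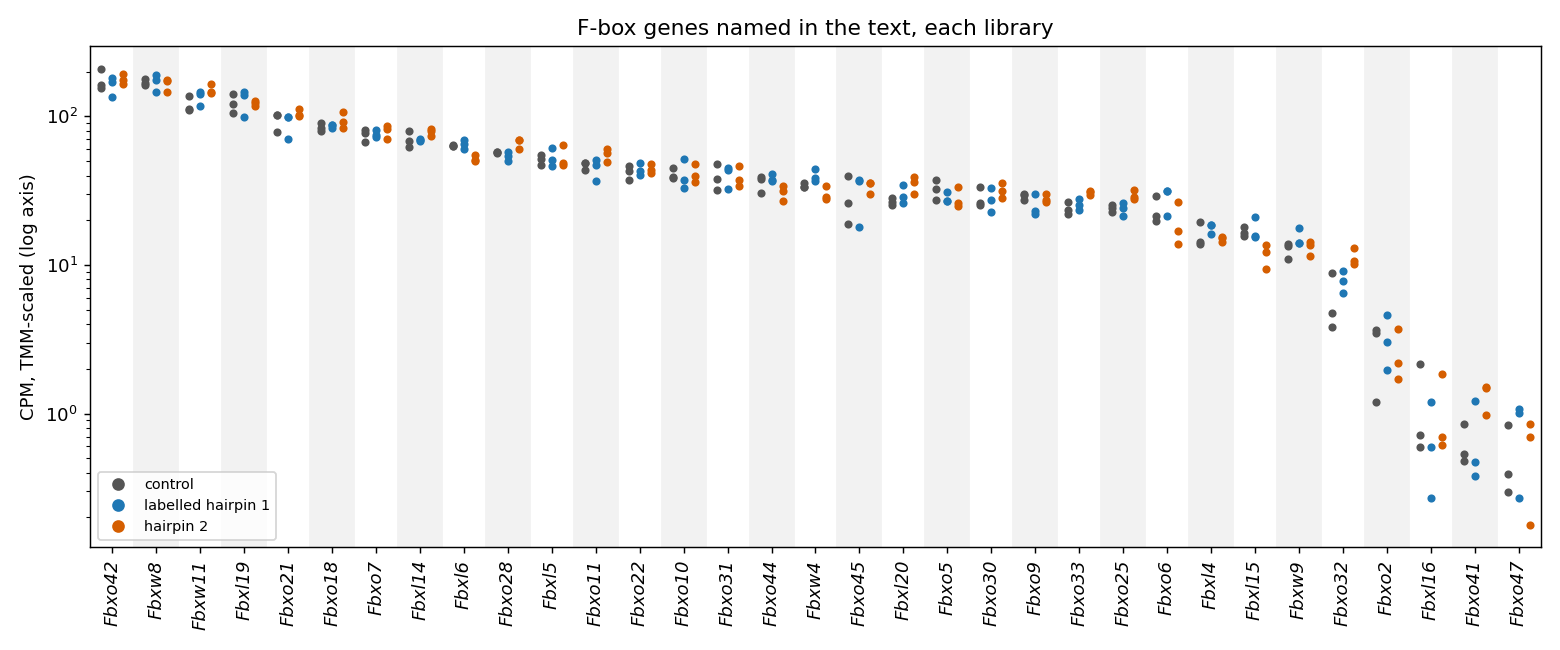
CPM (y axis, log scale) in each of the 9 libraries for 33 tested F-box genes named by the rule in the methods, ordered by mean level; points are single libraries, grey for control, blue for labelled hairpin 1 and orange for hairpin 2. Many genes overlap between groups, while Fbxl20, Fbxo33, Fbxo25 and Fbxo32 are among those with all 3 orange points above all 3 grey ones.

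As a family the F-box genes varied little. The median within-group SD of log2 CPM was 0.19 over the 52 tested genes, against 0.24 over all genes tested. The lowest SD was that of Fbxl6, at 0.08, and the highest that of Fbxl16, at 0.86, a gene of under 3 CPM in every library. Replicate 2 of hairpin 2 held the highest value of the 9 libraries for 13 of the 52 genes, beside 17.7% of all tested genes. Replicate 2 labelled hairpin 1 held the highest for 11, beside 9.41%. The lowest value fell in replicate 1 labelled hairpin 1 for 13, beside 20.4%.

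Libraries labelled hairpin 1 and control libraries were set side by side to ask whether the other F-box genes differ where a hairpin against Fbxo38 was used. None of the 52 passed edgeR's test at a Benjamini-Hochberg adjusted p under 0.05 (lowest adjusted p = 1; background 0 of 14193 genes, 0%), and DESeq2 and limma-voom also called 0. None had an unadjusted p under 0.05, where 3.17% of all tested genes did (1.85% higher and 1.32% lower), nor with length and GC trends removed, where 1.92% were higher and 1.63% lower. Their median log2 fold change was 0.04, with 31 positive and 21 negative, against a median of 0.01 over all tested genes. Fbxo38 was not detectably lower in these libraries as a group (95% interval -0.73 to 0.53), but its values were mixed. Replicate 1, a library that stood apart, had the highest of the 9 values, at 35.1 CPM. Replicate 2 lay below all 3 controls, and replicate 3 above only the lowest of them. The comparison therefore cannot be read as a test of Fbxo38 loss. Whether Fbxo38 fell in some of these libraries was not tested. For 45 of the 52 genes the 95% interval lay inside -1 to 1, so that a change of 2-fold or more lay outside it, and the other 7 had wider intervals.

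Fbxw4 and Fbxw9 were the only genes of the 52 whose 3 values labelled hairpin 1 all lay above the 3 controls, and none lay below. Over all tested genes such separation occurred in 4.09% upward and 4.30% downward. Fbxw4, which lies at the dactylaplasia limb defect locus of mice, stood at 35.7, 33.6 and 33.7 CPM in control and at 36.8, 44.3 and 38.5 labelled hairpin 1 (log2 fold change 0.21, SE 0.12; edgeR unadjusted p = 0.108, adjusted p = 1). Its exons overlap the antisense gene model Gm17018. Fbxw9 stood at 13.5, 11.0 and 13.9 CPM in control and at 14.2, 17.8 and 14.1 labelled hairpin 1 (0.26, SE 0.17; edgeR adjusted p = 1). Of the other genes of smallest p, Fbxo9 had a log2 fold change of -0.21 (SE 0.14), Fbxo32 one of 0.42 (SE 0.31) and Fbxw11 one of 0.17 (SE 0.13), each with overlapping groups.

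Hairpin 2, where Fbxo38 was lower in fitted value, was compared with the same control libraries. The question was whether any other F-box gene moved along with Fbxo38. None of the 52 passed edgeR's adjusted threshold (background 0%), and limma-voom called 0. DESeq2 called 0 of the 52, against 303 of all tested genes (2.13%). At an unadjusted p under 0.05 there were 8 of 52, 6 higher and 2 lower, where 14.4% of all tested genes reached that level (8.14% higher and 6.27% lower). The 8 are about the share found over all genes. The median log2 fold change of the 52 was 0.05 against 0.01 over all tested genes. The lowest value among the 52 was -0.53, that of the antisense transcript Fbxl12os at a mean of 0.848 CPM, so no tested F-box gene had a fold change as low as that of Fbxo38. By class, the median was 0.10 for 28 Fbxo genes (21 positive), 0.02 for 16 Fbxl genes (8 positive) and -0.06 for 8 Fbxw genes (3 positive). With length and GC trends removed, the medians were 0.10 for Fbxo, -0.002 for Fbxl and 0.01 for Fbxw genes. Intervals lay inside -1 to 1 for 43 genes.

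**Figure D3:**
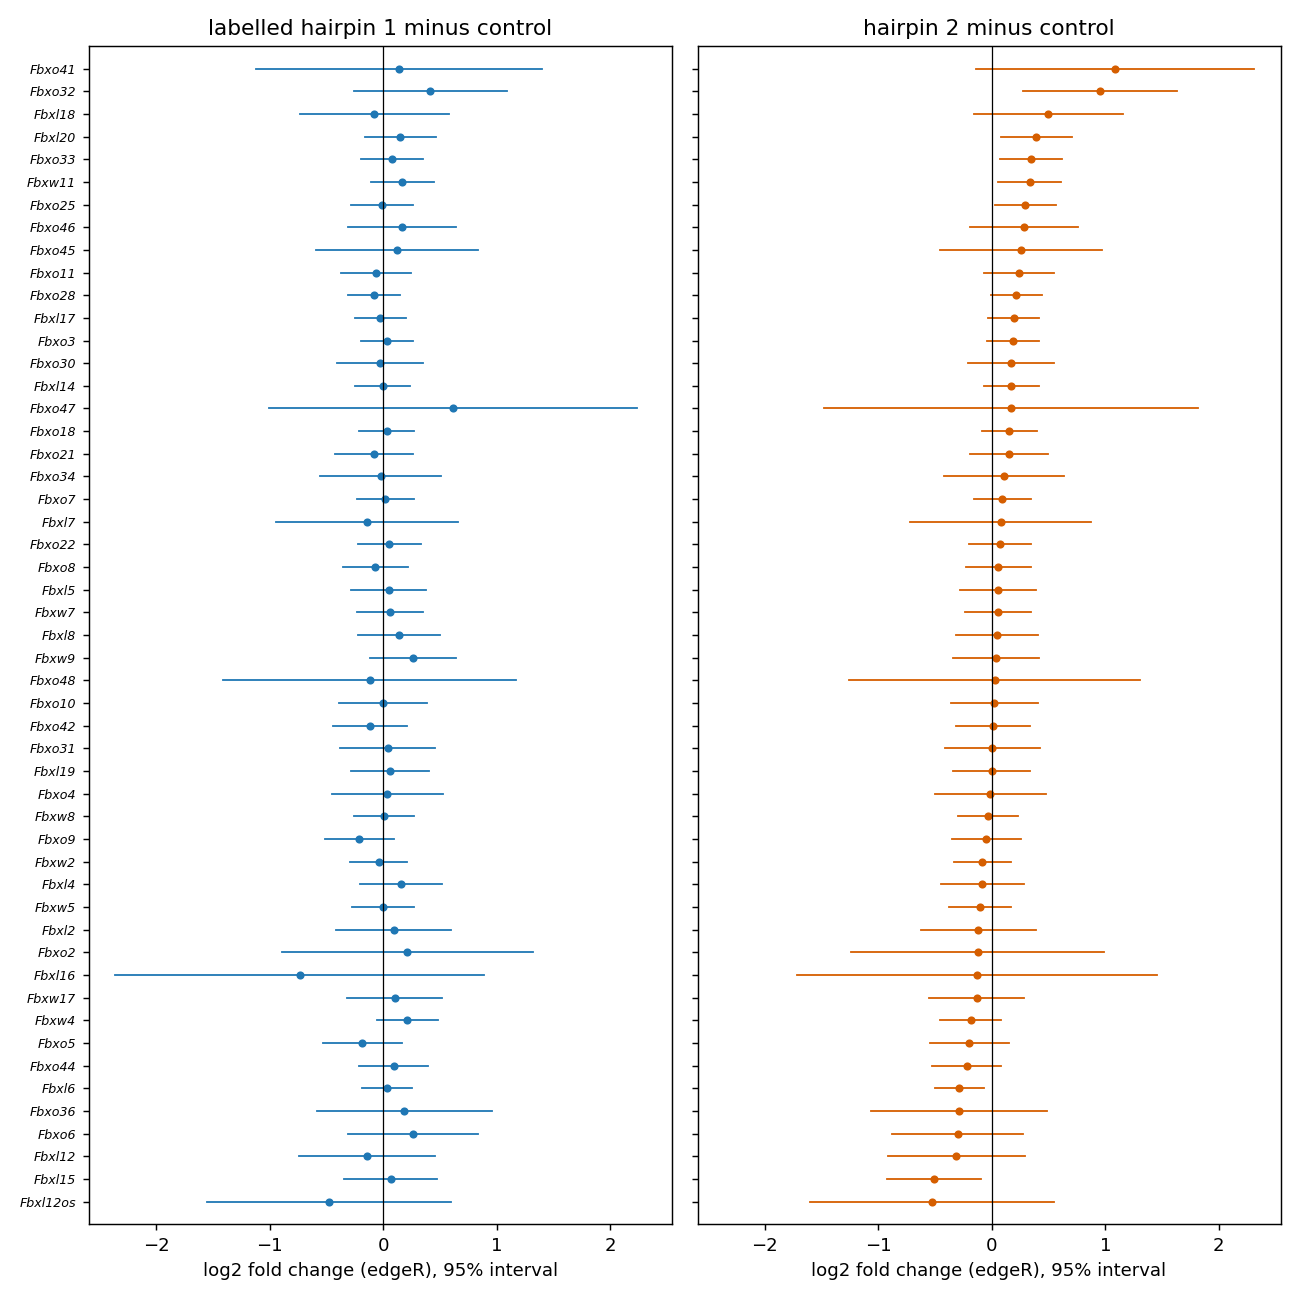
edgeR log2 fold change (points) and 95% interval (lines) of 51 tested F-box genes for the libraries labelled hairpin 1 (left) and hairpin 2 (right), each against the same 3 control libraries, ordered by the hairpin 2 value. The interval spans 0 for all 51 plotted genes on the left and for 44 of 51 on the right.

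With hairpin 2, some F-box genes had groups that did not overlap. For 11 of the 52 genes all 3 hairpin 2 libraries lay above all 3 controls, and for 2 all lay below, beside 10.6% and 10.2% of all tested genes. Among the cell cycle genes, Fbxw11, which encodes the receptor for beta-catenin and I-kappa-B (beta-TrCP2), was 1 of the 11. It stood at 137, 112 and 111 CPM in control, 117, 141 and 147 labelled hairpin 1, and 143, 165 and 145 with hairpin 2 (log2 fold change 0.33, SE 0.13, 95% interval 0.05 to 0.61; edgeR unadjusted p = 0.0241, adjusted p = 0.282). The gene spans 32642724 to 32746816 on the plus strand of chromosome 11 (GRCm38). Fbxo5, whose product Emi1 restrains the anaphase-promoting complex, stood at 27.2, 37.2 and 32.4 CPM in control, 31.2, 27.0 and 27.0 labelled hairpin 1, and 33.4, 26.2 and 24.8 with hairpin 2, with overlapping groups. Fbxo31, a receptor for cyclin D1, ranged from 31.8 to 47.9 CPM within the controls alone, which covered all 6 other libraries. Of the 5 tested genes of this list, only Fbxw11 had an unadjusted p under 0.05.

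Fbxo32 had the largest fold change among the genes at an unadjusted p under 0.05. It encodes atrogin-1, the F-box protein known for driving protein loss in wasting muscle. Fbxo32 (ENSMUSG00000022358.7, minus strand of GRCm38 chromosome 15, 58175879 to 58214932, exons overlapping the opposite-strand model Gm15943) stood at 8.89, 4.77 and 3.81 CPM in control, 6.51, 9.08 and 7.77 labelled hairpin 1, and 10.6, 10.2 and 13.1 with hairpin 2. All 3 hairpin 2 libraries exceeded the other 6, although control replicate 1 lay inside the range labelled hairpin 1. This gave a log2 fold change of 0.95 (SE 0.30, 95% interval 0.28 to 1.63; edgeR unadjusted p = 0.0103, adjusted p = 0.254). The 9 skeletal muscle markers, 4 of them tested and none at 0 everywhere, summed to 11.8, 3.59 and 12.4 CPM in control, 8.47, 13.0 and 3.54 labelled hairpin 1, and 3.77, 3.16 and 19.2 with hairpin 2. Their part in the Fbxo32 values was not tested. Fbxo30, also called MUSA1 and linked to muscle wasting, overlapped between groups at 22.9 to 35.8 CPM. The muscle genes Fbxo40 and Fbxl22 had 45 and 43 counts in all and were not tested.

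Receptors for Snai1 and related transcription factors of epithelial-to-mesenchymal transition were all tested. By mean CPM among the 79 F-box genes, Fbxl14 ranked 8, Fbxo11 ranked 15 and Fbxo45 ranked 25. Fbxl14 stood at 61.9, 67.8 and 79.2 CPM in control, 69.7, 68.6 and 70.0 labelled hairpin 1, and 79.4, 81.9 and 73.8 with hairpin 2 (log2 fold change 0.17, SE 0.11). Fbxo11, whose exons overlap the opposite-strand gene Msh6, stood at 48.7, 43.7 and 48.4, then 36.8, 51.1 and 46.8, then 60.3, 56.9 and 49.2 CPM in the same order of groups. Its hairpin 2 libraries lay just above the controls (0.24, SE 0.14; edgeR adjusted p = 0.444). Fbxo45, an atypical receptor that pairs with the ligase Mycbp2, spread from 18.8 to 39.4 CPM within the controls. None of these 3 genes had an unadjusted p under 0.05. Neither did the p53 and apoptosis genes: Fbxo22, a receptor for the demethylase KDM4A, ranged from 37.1 to 48.2 CPM over the 9 libraries, and Fbxo10, a receptor for Bcl2, from 32.9 to 51.5 CPM.

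The tested receptors that bind sugar chains on misfolded glycoproteins, with their relative Fbxo44, lay lower with hairpin 2 in fitted value but overlapped control. All 3 tested genes of this list were negative on the log2 scale, at a median of -0.22, and none had an unadjusted p under 0.05. With length and GC trends removed, the median was -0.02. The genes of this list below the filter went the other way in the fit without it. Fbxo17 stood at 4.30 and Fbxo27 at 3.83, on 41 and 17 counts over the 9 libraries, and neither passed. Fbxo6 stood at 19.8, 29.2 and 21.4 CPM in control, 31.3, 31.6 and 21.5 labelled hairpin 1, and 16.9, 13.8 and 26.4 with hairpin 2. Its lowest value fell in replicate 2 of hairpin 2, 1 of the libraries that stood apart. Fbxo44 stood at 30.4, 38.1 and 39.4 CPM in control, 41.2, 37.5 and 36.6 labelled hairpin 1, and 31.4, 27.0 and 34.1 with hairpin 2. Fbxo2, at 1.19 to 4.62 CPM over the 9 libraries, was too low for a narrow interval.

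Iron and mitochondrial receptors showed no separation from control. Fbxo7, a Parkinson disease gene also needed in red cell formation, stood at 77.5, 80.4 and 67.0 CPM in control, 72.8, 80.8 and 74.8 labelled hairpin 1, and 71.0, 86.5 and 82.3 with hairpin 2. Its highest value was in replicate 2 of hairpin 2, the library with the most erythroid transcripts; the part of red cells in that value was not tested. Fbxl5, the iron-sensing receptor for IRP2, ranged from 46.5 to 64.2 CPM, and Fbxl4, a mitochondrial protein that limits mitophagy, from 13.9 to 19.5 CPM. Exons of Fbxo7 overlap A230060F14Rik and those of Fbxl5 overlap Bst1, both on the opposite strand. In these 3 genes the hairpin 2 log2 fold change lay between -0.08 and 0.09.

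Brain F-box genes included Fbxl20, known from the turnover of a presynaptic scaffold protein. It stood at 25.4, 26.6 and 28.2 CPM in control, 26.2, 34.3 and 28.5 labelled hairpin 1, and 39.2, 36.0 and 30.2 with hairpin 2 (log2 fold change 0.39, SE 0.14; edgeR unadjusted p = 0.0184, adjusted p = 0.27). Its exons overlap Gm11632 on the same strand. Fbxo41, a neuronal gene, was near the detection limit at 0.477, 0.850 and 0.535 CPM in control, 0.474, 1.21 and 0.379 labelled hairpin 1, and 1.51, 1.49 and 0.975 with hairpin 2 (1.09, SE 0.55; edgeR adjusted p = 0.387). Fbxl16 overlapped between groups at 0.269 to 2.16 CPM. Of the 4 germ and stem cell genes only Fbxo47, a meiosis gene, was tested, at 0.179 to 1.07 CPM, and its groups overlapped.

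Genes outside these role lists made up the rest of the small p values. Fbxo33, a receptor for the RNA-binding protein YB-1, stood at 26.7, 22.2 and 23.5 CPM in control, 23.3, 27.8 and 25.3 labelled hairpin 1, and 31.2, 31.3 and 29.4 with hairpin 2 (log2 fold change 0.34, SE 0.12; edgeR unadjusted p = 0.0181, adjusted p = 0.27). Fbxl6 was the steadiest gene of the family, at 63.0, 63.0 and 64.4 CPM in control and 64.9, 69.7 and 60.5 labelled hairpin 1. With hairpin 2 it stood at 55.3, 49.9 and 51.0 CPM, below all 6 others (-0.29, SE 0.10; edgeR unadjusted p = 0.0152, adjusted p = 0.267). Fbxl15, whose protein targets the ligase Smurf1 and whose exons overlap Cuedc2, stood at 15.6, 16.5 and 18.0 CPM in control, 15.7, 21.2 and 15.5 labelled hairpin 1, and 13.6, 9.42 and 12.2 with hairpin 2 (-0.51, SE 0.19; edgeR unadjusted p = 0.0209, adjusted p = 0.277). These are the 2 genes at an unadjusted p under 0.05 in the lower direction. The 18 tested genes outside the naming rule had mean levels of 0.848 to 69.9 CPM and hairpin 2 log2 fold changes of -0.53 to 0.50, and 0 of them had an unadjusted p under 0.05.

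Longer F-box genes tended to have higher fold changes with hairpin 2. Spearman's rho of the fold change against the longest transcript was 0.61 over the 51 tested F-box genes with a known length, and 0.37 over 14106 genes. Genes share the same 9 libraries, so this is a description. In the libraries labelled hairpin 1 the values were -0.17 and -0.02. Taken library by library, as the deviation of each F-box gene from its mean, rho with hairpin 2 was 0.41, 0.53 and 0.27. It was 0.23, -0.43 and -0.35 in control, and -0.52, -0.01 and -0.19 labelled hairpin 1. The F-box genes higher at an unadjusted p under 0.05 had a median transcript of 4164 bases, the 2 lower ones 1720 bases and all 51 one of 3641 bases. When each library's smooth trend in length and GC content was removed, 6 of the 52 were higher and 0 lower at an unadjusted p under 0.05, where 4.82% of all tested genes were higher and 4.83% lower; edgeR's adjusted test called 0. Among them were Fbxo32 (log2 fold change 0.73), Fbxo33 (0.32), Fbxw11 (0.28), Fbxo25 (0.41) and Fbxl14 (0.30). Fbxl20 dropped to 0.11, Fbxl6 stood at -0.08 and Fbxl15 at -0.31, and none of these 3 then had an unadjusted p under 0.05.

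**Figure D4:**
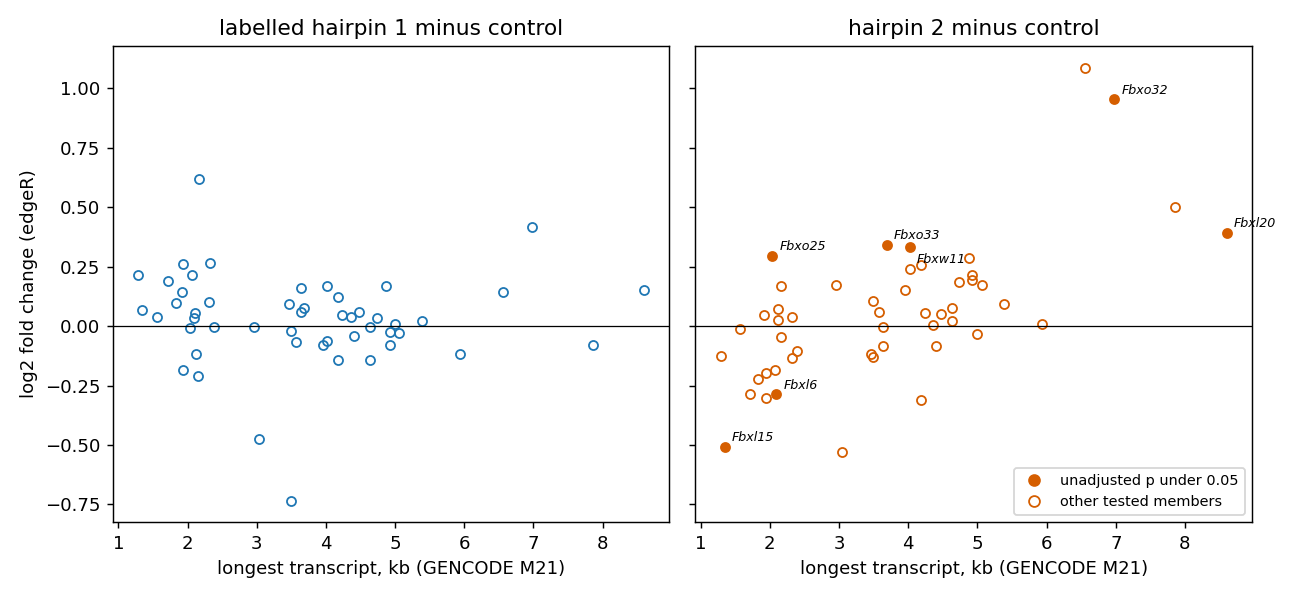
edgeR log2 fold change (y axis) against the length of the longest GENCODE M21 transcript in kb (x axis) for 50 tested F-box genes with a length, labelled hairpin 1 minus control (left) and hairpin 2 minus control (right); filled points had an unadjusted p under 0.05. On the right genes with short transcripts lie mostly below 0 and those with long ones mostly above, which the left panel does not show.

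Hairpin 2 was then set against the libraries labelled hairpin 1, a comparison that uses no control library. None of the 52 passed edgeR's adjusted threshold (lowest adjusted p = 0.375; background 0%), and limma-voom called 0. DESeq2 called 0 of the 52, against 0.627% of all tested genes. At an unadjusted p under 0.05 there were 7, 3 higher and 4 lower, beside 11.7% of all genes (6.43% higher and 5.23% lower). Groups were separated for 8 genes upward and 6 downward, beside 8.31% and 7.67% of all genes. Fbxw4, at 34.1, 28.6 and 27.9 CPM with hairpin 2, had the smallest p (log2 fold change -0.40, SE 0.12; edgeR unadjusted p = 0.00803, adjusted p = 0.375). Fbxl6 followed at -0.32 (SE 0.10; adjusted p = 0.375 by edgeR) and Fbxl15 at -0.57 (SE 0.19; adjusted p = 0.375 by edgeR).

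Higher with hairpin 2 in fitted value were Fbxo28, at 60.6, 69.1 and 68.9 CPM against 50.1, 57.8 and 53.8 labelled hairpin 1 (0.30, SE 0.10; edgeR adjusted p = 0.376), and Fbxo25, at 28.6, 31.8 and 28.0 against 24.2, 26.0 and 21.3 CPM (0.31, SE 0.12; edgeR adjusted p = 0.402). The controls stood at 57.5, 56.3 and 57.2 CPM for Fbxo28 and at 22.6, 24.0 and 25.3 CPM for Fbxo25, below the hairpin 2 libraries in both cases. With the length and GC trend removed, 3 of the 52 had an unadjusted p under 0.05, all higher, beside 2.73% higher and 3.28% lower over all genes. Fbxw4 then stood at -0.18, Fbxl6 at -0.11 and Fbxl15 at -0.34, and Fbxo25 kept an unadjusted p of 0.0108 at 0.39. The length correlation over the 51 genes was 0.61 here too, against 0.42 over all genes.

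The genotype labels of the hairpin samples name a different F-box gene for each library, from FBXO38 to FBXO43, although every title gives FBXO38. The counts of the named genes were therefore read in the libraries so labelled. Fbxo38 itself was highest of the 9 in the library labelled FBXO38 knockdown (replicate 1 labelled hairpin 1, 35.1 CPM). Fbxo39 had 6 counts in all, and all 6 were in the library labelled FBXO39 knockdown (replicate 2 labelled hairpin 1). Fbxo41 was highest of the 9 in the library labelled for it (replicate 1 of hairpin 2, 1.51 CPM), and Fbxo42 second highest in its own (replicate 2 of hairpin 2, 192 CPM). Fbxo40 had 2 counts in its library (replicate 3 labelled hairpin 1) and 2 to 8 in the others. Its level there was the lowest of the 9, at 0.126 CPM against 0.135 to 0.487 elsewhere. Fbxo43 had 0 in its library (replicate 3 of hairpin 2), as in 7 of the 9. For Fbxo38, Fbxo41 and Fbxo42, the genes of this set with enough counts to be tested, the labelled library was thus not a low one.

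The rest of the SCF machinery gave the setting. Of 27 genes of the SCF core and its neddylation, all tested, 0 passed edgeR's adjusted threshold in any of the 3 comparisons. At an unadjusted p under 0.05 there were 0 in the libraries labelled hairpin 1, where 3.17% of all tested genes reached that level. With length and GC trends removed there were 1 higher and 0 lower, beside 1.92% and 1.63% of all tested genes. With hairpin 2 there were 1 higher and 2 lower, with a median log2 fold change of -0.05, where 8.14% of all tested genes were higher and 6.27% lower. The lower ones were Ube2m, the enzyme that loads Nedd8 on cullins (-0.43), and Cdc34, the ubiquitin-conjugating enzyme of SCF ligases (-0.40), and the higher one Dcun1d3 (0.47), all named after their values were seen. With length and GC trends removed there were 0 higher and 2 lower, beside 4.82% and 4.83% of all tested genes. Ube2m (-0.23), Cdc34 (-0.20) and Dcun1d3 (0.23) then all missed that level. Hairpin 2 against the libraries labelled hairpin 1 gave 0 higher and 3 lower, beside 6.43% and 5.23% of all tested genes. Of 8 F-box genes with symbols outside the naming pattern, such as Skp2 and Btrc, 6 were tested and 0 passed. Kdm2a, a histone demethylase with an F-box, had an unadjusted p of 0.0324 with hairpin 2 (0.41), where 14.4% of all tested genes reached that level, and was also named after its value was seen. With length and GC trends removed it stood at 0.13 (unadjusted p = 0.267 by edgeR).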

How the data were processed

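Gene counts from 9 tumour libraries were used as deposited by the authors, raw and keyed by symbol. Of tools, STAR 2.7.0d and Cufflinks appear in the submitters' processing notes, which list human genome builds (GRCh38, hg38) for these mouse symbols. How reads were assigned to genes, and whether by strand, is not given in the sources used here, so overlapping genes cannot be told apart. Exons of 22 of the 79 F-box genes, 16 of them tested, overlap another GENCODE M21 gene (GRCm38). Groups came from sample titles. Within groups, chi-square per degree of freedom between libraries was 19.1 to 65.9, and no library was merged or left out.

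The test was edgeR's quasi-likelihood test (version 4.0.16, R 4.3.3) with its robust option, 3 groups in 1 model, TMM scaling, filterByExpr (minimum count 10, minimum total 15) and two-sided p-values (Benjamini-Hochberg adjustment over 14193 genes; 95% intervals). Library totals were 15322163 to 17342554 counts. Both hairpin comparisons share the 3 control libraries. Genes named were those in the genotype labels, up to 3 per role list by mean CPM, the 5 of smallest p per comparison and the 5 of highest CPM; others are given by counts and ranges or marked as named later, and 1 gene that the rule names is not reported here. The members and lists were chosen with earlier results of these data known. Alternatives were RLE scaling, no filter, DESeq2 1.42.0, limma-voom (limma 3.58.1), only the groups compared, a replicate block, removal of length and GC trends (spline fits per library), both together, and leaving out each library. The steps were tried on simulated data, with 100 altered genes at each size. For hairpin 2 against control, 42% of the simulated 2-fold differences and 79% of the 4-fold ones were called. Among 13961 genes, 12 were called falsely. Missing the threshold therefore does not by itself exclude a 2-fold change.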

Additional observations from a re-analysis of the deposited data

How the results depend on the processing

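No F-box gene was called in any of the 3 comparisons under any of the 18 alternatives run for each, leaving out each library included (0 to 0 genes). The 14 fold changes of smallest p reported here kept their direction and missed the threshold in all 18; their adjusted p ran from 0.0795 (Fbxo32, hairpin 2 against control, DESeq2) to 1. Their size labelled hairpin 1 rested on single libraries: Fbxo32 (0.42) was 0.86 without control replicate 1 and 0.18 without control replicate 3, and Fbxo9 (-0.21) was -0.37 without replicate 1 and -0.13 without replicate 2 labelled hairpin 1. Fbxw11 (0.17) was 0.27 without control replicate 1 and 0.10 without replicate 3 labelled hairpin 1, Fbxw9 (0.26) was 0.16 without control replicate 2 and 0.14 without replicate 2 labelled hairpin 1, and Fbxw4 (0.21) was 0.12 without the latter. The median log2 fold change over F-box genes, left without each library in turn, ran from -0.025 (without replicate 2 labelled hairpin 1) to 0.062 for the libraries labelled hairpin 1 and from 0.011 to 0.091 for hairpin 2. For hairpin 2 against hairpin 1 it ran from 0.017 to 0.089, and it was -0.029 without both libraries that stood apart, an alternative chosen after seeing the data. The counts at an unadjusted p under 0.05 rested on few libraries. In the comparison of hairpin 2 with control, 8 became 3 when replicate 2 of hairpin 2 was left out and 4 when control replicate 2, or both libraries that stood apart, were. The 0 labelled hairpin 1 became 1 without control replicate 1, without its own replicate 1 or without both that stood apart. For hairpin 2 against hairpin 1 the 7 became 3 without replicate 2 of hairpin 2, 11 without replicate 3 of hairpin 2 and 2 without both that stood apart. The share of all tested genes was not counted in these runs, so the shifts are not read as particular to F-box genes. The cause was not tested. Over all genes, DESeq2 called 303 and 89 in these comparisons and edgeR without the filter 4 and 2.

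With the replicate number as a block, 0 F-box genes were called in each comparison, and 0, 6 and 5 had an unadjusted p under 0.05 (5 and 3 in the hairpin 2 comparisons with the length and GC trend also removed). For the block runs too, the share of all tested genes was not counted. Same-numbered libraries did not deviate together (correlations of deviations from -0.41 to 0.14), so the numbers were not treated as pairs. With 3 libraries a group, the 95% interval reached a median of 0.35 log2 on each side. That width holds for single genes without adjustment, so a change of this size need not pass the adjusted threshold. Fbxo32, at 0.95 log2 with hairpin 2 against control, had an edgeR adjusted p of 0.254.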

Other observations

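Of the 27 F-box genes below the filter, 16 had at least 1 count, and their counts can be listed library by library. Fbxo17, a relative of the glycoprotein receptors, was counted 7, 9 and 11 times with hairpin 2, 6, 7 and 0 times labelled hairpin 1, and 1, 0 and 0 times in control; it was singled out after its values were seen. The ratio of hairpin 2 to control from 27 against 1 counts was 26.9, with an exact 95% interval of 4.43 to 1100 that covers counting error only. In the edgeR fit without the filter its unadjusted p was 0.00416 and its adjusted p 0.271, so it did not pass. Some other rare transcripts, named after their values were seen, came mostly from 1 library. All 12 counts of Fbxw20 and 11 of the 17 of Fbxo27 were in replicate 1 labelled hairpin 1, the library with the most fibroblast transcripts. Fbxo40 had 7, 4 and 8 counts in control, 3, 2 and 2 labelled hairpin 1, and 7, 4 and 8 with hairpin 2.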
